A study of Mus musculus with 11 samples.

Results

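Fibroblast identity and adventitial marker genes were examined in cells of the periostin lineage from untreated mouse mammary glands. The set comprised 10 genes, found by symbol: Pdgfra, Dpt, Pi16, Cd34, Ly6a, Ly6c1, Thy1, Vim, S100a4 and Gsn. Of these, 9 had a row of their own among the 19962 targets of the deposited count table. Ly6a had none; a single probe listed under Ly6c1 is annotated to Ly6a, Ly6a2, Ly6c1 and Ly6c2 together.

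Lineage-tracing mice were used, in which ZsGreen marks cells of the periostin lineage, named for a matrix protein. The labels do not describe the tracing allele. The study asked how such cells differ in their transcripts beside lymphatic vessels and beside blood vessels and ducts. Mammary glands of 3 mice, fixed in paraformaldehyde and frozen, were profiled by GeoMx digital spatial profiling, in which probe barcodes are released by ultraviolet light from chosen areas and sequenced. The 11 regions analysed here, of 12 areas collected, were picked by staining for podoplanin (Pdpn), a lymphatic vessel marker, or smooth muscle actin (SMA), and only the ZsGreen-positive area of each was collected. The 6 Pdpn-adjacent regions carry the numbers 2, 3, 4, 7, 8 and 11, and the 5 SMA-adjacent regions the numbers 1, 5, 6, 9 and 10. All came from untreated glands of the same kind of mouse, with no age or strain stated in the labels. The labels do not say which mouse gave which region. With 6 and 5 regions from 3 mice, some regions must share an animal. P-values that count each region as independent can therefore be too small, here and in every comparison that follows.

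Fibroblasts are the matrix-producing cells of connective tissue, and the genes in the set mark them at several levels. Pdgfra, the alpha receptor for platelet-derived growth factor, is the most widely used surface marker of fibroblasts. Dpt, Pi16, Cd34 and Ly6a (Sca-1) mark the adventitial or universal fibroblasts that line vessels and fascia and are regarded as a source of more specialised fibroblasts. Thy1, Vim, S100a4 and Gsn are common in fibroblasts but not restricted to them. Cd34, Ly6a and Ly6c1 are also expressed by endothelial cells, Thy1 by T cells and neurons, S100a4 by macrophages, and Vim and Gsn by smooth muscle.

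Total counts of endogenous probes were 22757 to 2271664 in Pdpn-adjacent and 760761 to 3086323 in SMA-adjacent regions. Regions 2, 3 and 11, all Pdpn-adjacent, held 22757, 81760 and 30316 counts, under the 100000 counts that every other region exceeded. In them 90.0%, 18.1% and 77.6% of endogenous probes stood at the lowest value in the table, 1. Levels below are counts divided by the geometric mean of the 210 negative-control probes of the same region, called times background. The floor of each region was set 2 SD above the mean of its negative probes on the log2 scale, and a gene counted as above the floor if its count was higher. That floor lay at 1.43 to 3.89 times background in Pdpn-adjacent and 2.04 to 2.47 times background in SMA-adjacent regions. Because regions are bulk collections of cells, fewer fibroblasts in an area and less RNA per fibroblast cannot be told apart.

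The genes split into those above the floor in every SMA-adjacent region and those nearer background. Gsn, Vim, Ly6c1, Dpt and Cd34 were above the floor in 4, 4, 5, 4 and 3 of 6 Pdpn-adjacent regions and in all 5 SMA-adjacent regions. In the shallow regions 2 and 11 a raw count of 2 was enough to pass, and 10.0% and 22.4% of endogenous probes passed there. Cd34, S100a4, Dpt and Gsn passed in region 11 on raw counts of 2, 4, 5 and 10. Vim passed in region 2 on 2 counts, and the Ly6c1 probe in both regions on 4 counts each. These passes rest on few counts. Of all tested probes, 6.31% were above the floor in all 5 SMA-adjacent regions. Pdgfra was above the floor in 1 Pdpn-adjacent and 3 SMA-adjacent regions, and S100a4 in 1 and 2. Pi16 and Thy1 were above it in 0 Pdpn-adjacent and 2 SMA-adjacent regions, so their values lie within the range of the negative probes in most of the areas. In no gene were the groups wholly apart: 0 of the 9 had all Pdpn-adjacent regions below all SMA-adjacent ones in times background, where 0.446% of all tested probes did, and 0 of the 9 in library-scaled counts, where 0.391% did.

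**Figure D1:**
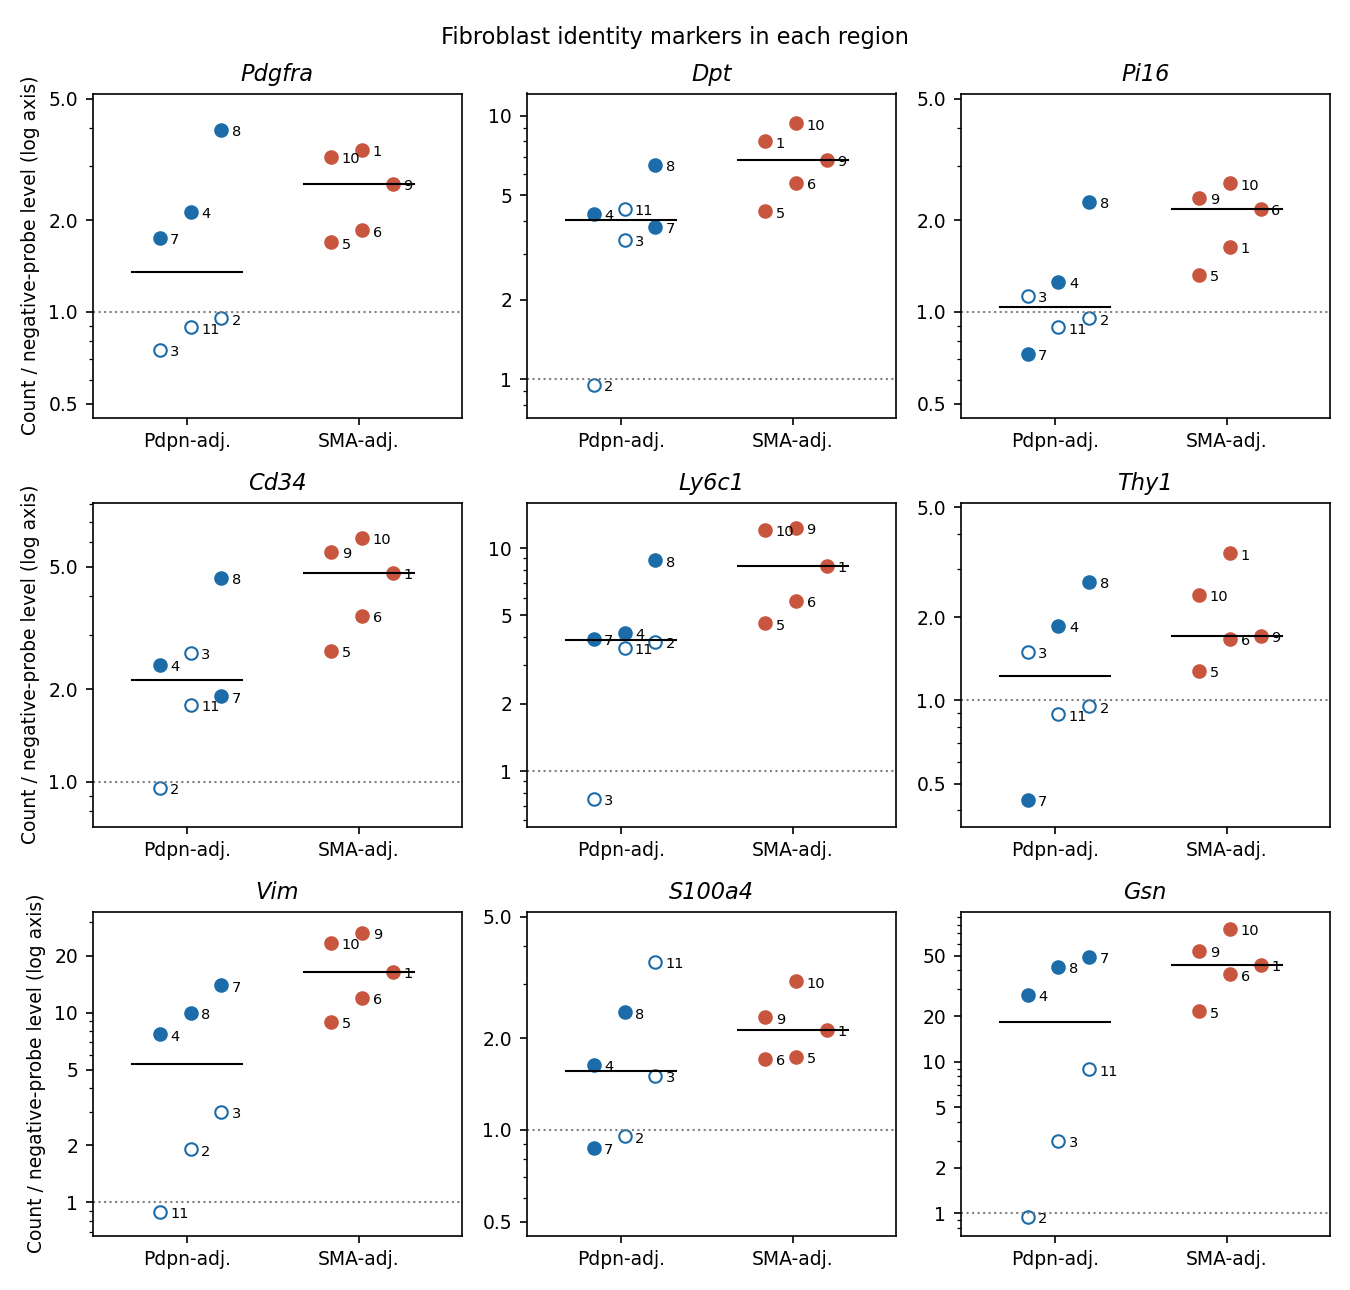
Level of each of the 9 genes in every region, as the count over the negative-probe level on a log axis, with Pdpn-adjacent regions (blue) left and SMA-adjacent regions (red) right. Points carry the region number, hollow points are the 3 regions under 100000 counts, bars are group medians and the dotted line is the negative-probe level; a hollow point is the lowest of all in 6 of 9 panels, and SMA-adjacent region 5 is the lowest of its group in 8 of 9 panels.

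Pdgfra, the receptor that defines fibroblasts most broadly, was read by a probe at chr5:75163715-75163752, within the gene (all probe positions are on GRCm38.p6, and exons were not annotated here). It ranged from 0.750 to 3.96 times background in Pdpn-adjacent regions, with a median of 1.35. In SMA-adjacent regions 1, 5, 6, 9 and 10 it stood at 3.40, 1.69, 1.85, 2.63 and 3.22 times background. The shallow regions 2, 3 and 11 lay below every SMA-adjacent region, regions 4 and 7 lay within the SMA-adjacent range, and Pdpn-adjacent region 8 had the highest value of all 11. Pdgfra averaged 54.2 ± 28.9 CPM (counts scaled to the effective library size; SD, n = 6) in Pdpn-adjacent and 78.1 ± 19.8 CPM (SD, n = 5) in SMA-adjacent regions. Its log2 fold change, Pdpn-adjacent over SMA-adjacent, was -0.14 ± 0.23 SE (edgeR quasi-likelihood test, adjusted p = 1.00). Without the 3 regions under 100000 counts it was -0.01 ± 0.23 SE, and those 3 held raw Pdgfra counts of 1, 2 and 1. The difference in mean log2 CPM over all 11 regions, each weighted equally, was -0.63.

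Dpt, which encodes the small matrix protein dermatopontin, was read at chr1:164823196-164823230, within the gene. It ranged from 0.952 to 6.52 times background in Pdpn-adjacent regions, with a median of 4.02. SMA-adjacent regions 1, 5, 6, 9 and 10 gave 8.00, 4.34, 5.55, 6.79 and 9.36 times background. Regions 2 and 3 were the Pdpn-adjacent regions not above the floor, on raw counts of 1 and 9, and 4 of the 6 lay below every SMA-adjacent region. Dpt averaged 125 ± 49.4 CPM (SD, n = 6) in Pdpn-adjacent and 208 ± 49.2 CPM (SD, n = 5) in SMA-adjacent regions. The log2 fold change was -0.63 ± 0.30 SE (edgeR adjusted p = 0.818), and the exact permutation test over regions, two-sided, gave p = 0.0173, or 0.505 after adjustment over all tested probes.

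Pi16, a secreted peptidase inhibitor and the most used marker of adventitial fibroblasts, was read at chr17:29319319-29319354, within the gene. It ranged from 0.728 to 2.30 times background in Pdpn-adjacent regions, with a median of 1.04. Its values in SMA-adjacent regions 1, 5, 6, 9 and 10 were 1.64, 1.32, 2.18, 2.36 and 2.64 times background. Pdpn-adjacent region 8 lay among the SMA-adjacent values, and the other 5 lay below all of them. The log2 fold change was -0.58 ± 0.21 SE (edgeR adjusted p = 0.657), and it was -0.56 ± 0.23 SE without the regions under 100000 counts. Raw Pi16 counts were 1, 3 and 1 in the shallow regions 2, 3 and 11, and 96, 5 and 18 in regions 4, 7 and 8.

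Cd34, a sialomucin of adventitial fibroblasts and of vascular endothelium, was read at chr1:194958532-194958571, within the gene. It ranged from 0.952 to 4.60 times background in Pdpn-adjacent regions, with a median of 2.15. In SMA-adjacent regions 1, 5, 6, 9 and 10 it stood at 4.78, 2.66, 3.45, 5.57 and 6.21 times background. All Pdpn-adjacent regions except region 8 lay below every SMA-adjacent region. The log2 fold change was -0.72 ± 0.26 SE (edgeR adjusted p = 0.657). The difference in mean log2 CPM was -0.90, with an exact permutation p of 0.0173, or 0.505 when adjusted. Over the 8 regions of 100000 counts or more the log2 fold change was -0.67 ± 0.28 SE. Cd34 averaged 86.4 ± 30.2 CPM (SD, n = 3) in the 3 Pdpn-adjacent regions among them and 138 ± 37.6 CPM (SD, n = 5) in the SMA-adjacent ones.

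The Ly6c1 probe reads a family of lymphocyte antigen 6 proteins, small glycolipid-anchored surface proteins whose member Ly6a is the stem cell antigen Sca-1. Its 35-base target occurs at 4 sites on chromosome 15 of GRCm38.p6, one each within Ly6a, Ly6c1, Ly6c2 and Ly6a2, so its counts cannot be divided among them. The site in Ly6a is chr15:74995267-74995301 and that in Ly6c1 chr15:75045407-75045441. The signal ranged from 0.750 to 8.82 times background in Pdpn-adjacent regions, with a median of 3.87. SMA-adjacent regions 1, 5, 6, 9 and 10 gave 8.31, 4.60, 5.80, 12.3 and 12.1 times background. As for Cd34, region 8 was the one Pdpn-adjacent region inside the SMA-adjacent range. The probe averaged 134 ± 65.4 CPM (SD, n = 6) in Pdpn-adjacent and 262 ± 95.6 CPM (SD, n = 5) in SMA-adjacent regions. Its log2 fold change was -0.90 ± 0.38 SE (edgeR adjusted p = 0.761), and -0.69 ± 0.36 SE without the regions under 100000 counts.

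Thy1 (CD90), a glycolipid-anchored surface protein of fibroblasts, was read at chr9:44046835-44046870, within the gene. It ranged from 0.437 to 2.68 times background in Pdpn-adjacent regions, with a median of 1.23. Its values in SMA-adjacent regions 1, 5, 6, 9 and 10 were 3.40, 1.28, 1.66, 1.71 and 2.41 times background. The lowest value, from region 7, rests on 3 counts, for which the exact Poisson 95% interval is 0.619 to 8.77 counts and covers counting error only. The log2 fold change was -0.15 ± 0.25 SE (edgeR adjusted p = 1.00), and it changed sign, to 0.01 and 0.03, when Pdpn-adjacent region 7 or SMA-adjacent region 1 was left out. The difference in mean log2 CPM over all regions, each weighted equally, was -0.60.

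S100a4, a calcium-binding protein also called fibroblast-specific protein despite its expression in macrophages, was read at chr3:90605063-90605097, within the gene. It ranged from 0.873 to 3.56 times background in Pdpn-adjacent regions, with a median of 1.57. In SMA-adjacent regions 1, 5, 6, 9 and 10 it stood at 2.12, 1.74, 1.71, 2.34 and 3.07 times background. The highest value was in the shallow region 11, on a raw count of 4, and region 7 was the lowest. The log2 fold change was -0.33 ± 0.20 SE (edgeR adjusted p = 0.927).

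Vim, the intermediate filament protein of mesenchymal cells, was read at chr2:13578419-13578458, within the gene. It ranged from 0.889 to 14.0 times background in Pdpn-adjacent regions, with a median of 5.35. SMA-adjacent regions 1, 5, 6, 9 and 10 gave 16.4, 8.99, 12.0, 26.3 and 23.4 times background. The shallow regions 2, 3 and 11 were the lowest, with raw counts of 2, 8 and 1, while regions 7 and 8 lay within the SMA-adjacent range. Vim averaged 195 ± 155 CPM (SD, n = 6) in Pdpn-adjacent and 529 ± 201 CPM (SD, n = 5) in SMA-adjacent regions. Vim had the lowest log2 fold change of the 9 genes, -1.23 ± 0.51 SE (edgeR adjusted p = 0.761). The difference in mean log2 CPM was -1.81, with an exact permutation p of 0.0130, adjusted 0.50. Without the regions under 100000 counts the log2 fold change was -0.74 ± 0.45 SE. Vim then averaged 320 ± 110 CPM (SD, n = 3) in the remaining Pdpn-adjacent regions.

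Gsn, which encodes the actin-severing protein gelsolin, was read at chr2:35284704-35284739, within the gene. It ranged from 0.952 to 49.3 times background in Pdpn-adjacent regions, with a median of 18.2. Its values in SMA-adjacent regions 1, 5, 6, 9 and 10 were 43.7, 21.5, 37.6, 53.7 and 75.1 times background. All 3 deeper Pdpn-adjacent regions, at 27.5, 49.3 and 42.2 times background in regions 4, 7 and 8, fell inside the SMA-adjacent range. Over all regions the log2 fold change was -0.98 ± 0.84 SE (edgeR adjusted p = 0.985). It was -0.24 ± 0.67 SE without regions 2, 3 and 11, whose raw Gsn counts were 1, 8 and 10.

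As a set, 9 of 9 genes had a log2 fold change below 0, with a median of -0.63. Over all 19935 tested probes the median was 0.01, and 48.8% were below 0. Over probes above the floor in all 5 SMA-adjacent regions, as 5 of the 9 genes were, the median was -0.17. That class is picked by SMA-adjacent values, which can itself lower its median. The 9 genes were chosen with earlier results of these data known. By edgeR 0 of the 9 passed an adjusted p of 0.05, where 0.01% of all tested probes did, and 0 passed by limma-voom or by DESeq2, which gave Pi16 and Thy1 no adjusted p. At an unadjusted edgeR p under 0.05, 5 of the 9 were lower (Dpt, Pi16, Cd34, Ly6c1 and Vim) and 0 higher, where 3.19% of all tested probes were lower and 2.84% higher. The exact permutation test gave an unadjusted p under 0.05 for the same 5 genes, where 4.19% of all tested probes were lower, and adjusted p-values of 0.50 to 0.890 for the 9. Its smallest possible p is 0.00433 with 462 splits, and 0% of all tested probes had an adjusted p under 0.05 by it. Regions of a shared mouse are not independent, and these p-values treat them as if they were.

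Without the 3 shallow regions, all 9 genes still had a log2 fold change below 0, as did 49.7% of all 19965 tested probes, and the median of the 9 was -0.53. At an unadjusted edgeR p under 0.05, 2 of them, Pi16 and Cd34, were lower, where 2.16% of all tested probes were. At an adjusted p of 0.05, 0 of the 9 passed, where 0.00501% of all tested probes did, and the smallest adjusted p among them was 1.00. With 3 against 5 regions the exact permutation test cannot give a p below 0.0357, and it gave 0 of the 9 genes a p under 0.05, where 2.04% of all tested probes were lower at that level. These p-values too can be too small, because animals are shared between regions.

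**Figure D2:**
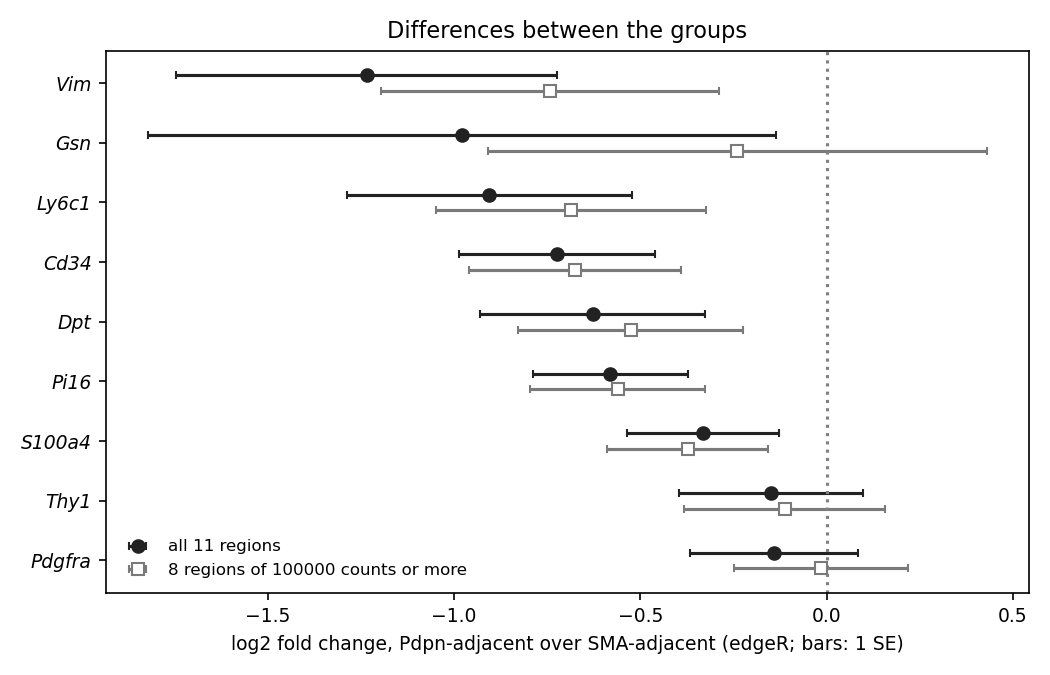
Log2 fold change of each gene, Pdpn-adjacent over SMA-adjacent, from edgeR with 1 SE, over all 11 regions (filled circles) and over the 8 regions of 100000 counts or more (open squares). All estimates lie below 0, and those of Vim and Gsn move most, to -0.74 and -0.24, once the shallow regions are left out.

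Within each group the regions fell in a similar order for most of the genes. Among the 3 deeper Pdpn-adjacent regions, region 8 was the highest for 7 genes (Pdgfra, Dpt, Pi16, Cd34, Ly6c1, Thy1 and S100a4) and region 7 was the lowest for the same 7. For Vim and Gsn the order differed, with region 7 the highest and region 4 the lowest. Among SMA-adjacent regions, region 5 was the lowest for 8 of 9 genes, all but S100a4, and region 10 was the highest for 5 (Dpt, Pi16, Cd34, S100a4 and Gsn). Region 5 also had the largest total count of the series, 3086323, and region 7 the smallest of the 8 deeper regions, 225875.

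**Figure D3:**
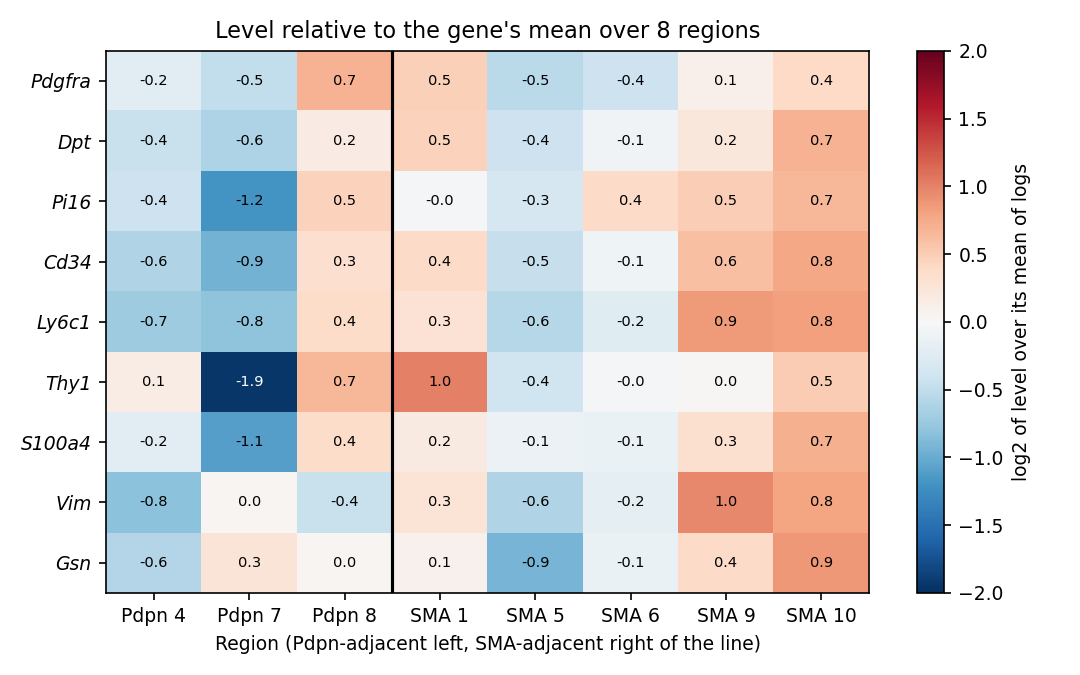
Level of each gene in the 8 regions of 100000 counts or more, as the log2 of times background minus the gene's own mean over those regions, with Pdpn-adjacent regions left of the black line and SMA-adjacent regions right of it. Region 7 is blue for the 7 upper genes and near or above 0 for Vim and Gsn; region 5 is blue in every row.

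Across the same 8 regions most genes varied together, by Pearson correlation of log2 CPM. This is given as a description, since the points share library depth and background. They also pool both groups, and all 9 genes were lower in the Pdpn-adjacent one, which can by itself raise r. No r for pairs of other probes is given for comparison. Cd34 and the Ly6c1 probe had an r of 0.97, Dpt and Cd34 0.94, and Dpt and the Ly6c1 probe 0.88. S100a4 had an r of 0.89 with Pi16 and with Cd34. Vim and Gsn had an r of 0.83 with each other, and Thy1 with Gsn and with Vim -0.08 and -0.01. Over all 36 pairs the median r was 0.71, and 2 pairs were below 0.

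To show the upstream sequence of genes whose probes varied together, the 100 bases before the annotated start are given for Dpt, Cd34 and Ly6c1 and for Vim and Gsn. The Ly6c1 probe reads 4 genes together, so whether Ly6c1 itself varied with Dpt and Cd34 is not known. They come from the RefSeq promoter table on GRCm38.p6, which held 8 of the 10 genes. Where a gene has several starts (2 for Ly6c1, 3 for Gsn), the start farthest upstream is shown. Each reads 5′ to 3′ on the gene's strand, and capitals mark the TATA box motif TATAAA, the GC box motif GGGCGG or the CCAAT box, on either strand.
Dpt, chr1:164796563-164796662, plus strand: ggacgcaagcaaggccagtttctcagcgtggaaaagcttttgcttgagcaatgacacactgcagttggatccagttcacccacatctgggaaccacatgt
Cd34, chr1:194938721-194938820, plus strand: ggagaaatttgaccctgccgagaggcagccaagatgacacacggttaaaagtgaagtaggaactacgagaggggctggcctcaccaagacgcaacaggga
Ly6c1, chr15:75048838-75048937, minus strand: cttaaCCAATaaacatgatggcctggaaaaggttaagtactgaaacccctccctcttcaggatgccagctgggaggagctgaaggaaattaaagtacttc
Vim, chr2:13574211-13574310, plus strand: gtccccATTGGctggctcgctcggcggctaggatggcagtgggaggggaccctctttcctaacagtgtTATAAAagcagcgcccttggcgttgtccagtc
Gsn, chr2:35256259-35256358, plus strand: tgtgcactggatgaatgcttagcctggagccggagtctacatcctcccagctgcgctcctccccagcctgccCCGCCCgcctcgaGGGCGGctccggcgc

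The Vim stretch holds TATAAA 32 bases before the start, the usual distance of a TATA box, and the Gsn stretch holds GGGCGG once on each strand. In windows of 250 bases before to 50 after the start, TATAAA on either strand occurred in 4 of the 11 windows of the 8 genes and in 13.6% of all 32851 windows in the table. It lay 32 bases before the start in Vim, 31 before it in S100a4, 143 before it in Ly6c1 and 12 after it in Dpt. GGGCGG occurred in 3 of the 11 windows, all of Gsn, and in 35.7% of all windows. CCAAT occurred in 5 of the 11 windows, those of Gsn, Ly6c1, Pi16 and Vim, and in 37.4% of all windows. Dpt and Ly6c1 both held TATAAA, though on different sides of the start, Cd34 held none of the 3 motifs, and Vim and Gsn both held CCAAT. A match describes the letters of the sequence and is not evidence of binding.

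The 3 probes most like each gene in log2 CPM over the 8 deeper regions were taken from 2381 probes above the floor in at least 4 of them. Cd34 was most like Heg1 (r = 0.99), Cd74 (0.99) and Adgrf5 (0.97), and the Ly6c1 probe was most like Heg1 (0.98), Tinagl1 (0.97) and Cd34 (0.97). Dpt was most like Slc44a2 (0.98), Adgrf5 (0.96) and C1qb (0.96). Pdgfra was most like Tnxb (0.96), Clic1 (0.95) and Rpl5 (0.95), and Pi16 most like Snrk (0.99), Jup (0.96) and Kmt2e (0.95). S100a4 was most like Cltb (0.96), Pf4 (0.95) and C1qa (0.95). Vim was most like Myl6 (0.98), Pecam1 (0.98) and Cst3 (0.98), and Gsn most like Selenop (0.99), Aldh2 (0.99) and Gnb1 (0.98). Thy1 was left out, its median being under 2 times background in both groups. With 2381 probes and 8 regions, values of r this high are descriptions only.

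Other fibroblast genes, a list also chosen with earlier results of these data known, were mostly below 0 as well. Of 28 further markers, all measured, 23 had a log2 fold change below 0 and 5 above, with a median of -0.25, where 48.8% of all tested probes were below 0, and 0 passed the edgeR adjusted p of 0.05 in either direction. At an unadjusted p under 0.05, 7 were lower and 0 higher, where 3.19% of all tested probes were lower and 2.84% higher. The 4 of smallest p were Fstl1, a secreted follistatin-like glycoprotein (log2 fold change -0.76 ± 0.26 SE, edgeR adjusted p = 0.627), the matrix protein Fbln2 (-0.76 ± 0.29 SE, 0.713), the type I collagen gene Col1a2 (-1.19 ± 0.49 SE, 0.761) and the matrix protein Fbln1 (-0.53 ± 0.22 SE, 0.761). Fstl1 averaged 51.2 ± 16.8 CPM (SD, n = 6) in Pdpn-adjacent and 93.0 ± 33.9 CPM (SD, n = 5) in SMA-adjacent regions. Col1a2 averaged 198 ± 136 CPM (SD, n = 6) in Pdpn-adjacent and 500 ± 171 CPM (SD, n = 5) in SMA-adjacent regions. Fbln1 was above the floor in 0 Pdpn-adjacent and 2 SMA-adjacent regions, Fstl1 and Fbln2 in 1 and 4 each, and Col1a2 in 4 and 5. Without the regions under 100000 counts, 21 of 28 were below 0 and the median was -0.22. Of the 28, 5 were above the floor in no region and 9 were above it in all 5 SMA-adjacent regions. Over all tested probes of that last kind the median log2 fold change was -0.17. Shared animals among the regions can make these p-values too small as well.

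**Figure D4:**
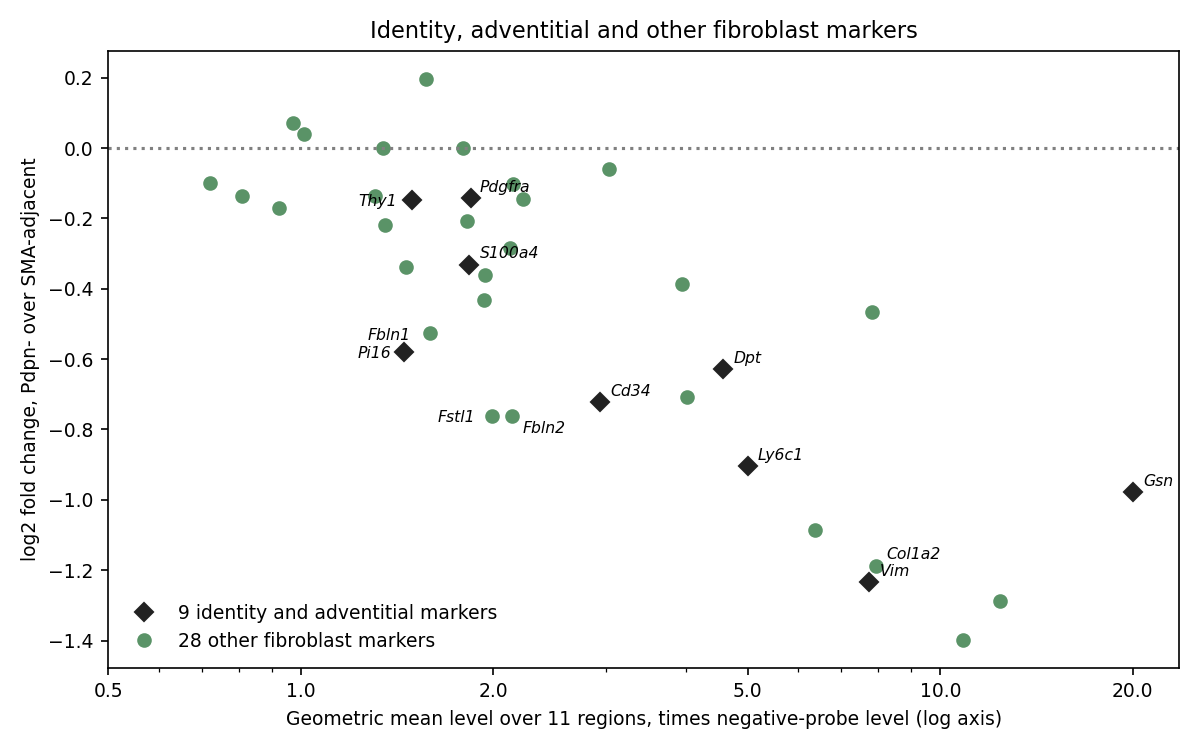
Log2 fold change, Pdpn-adjacent over SMA-adjacent (edgeR), against the geometric mean level over all 11 regions in times background (log axis), for the 9 genes (diamonds) and 28 other fibroblast markers (circles). The 4 lowest values, -1.40 for Col1a1, -1.29 for Col3a1, -1.23 for Vim and -1.19 for Col1a2, belong to genes with a mean level above 7 times background; Col1a1 and Col3a1, unlabelled in the plot, are named here for their values.

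Since the marker genes are shared with other cell types, those types were measured in the same regions. Smooth muscle and pericyte genes averaged 1.06 to 4.85 times background over the 9 genes of the list in Pdpn-adjacent and 4.17 to 19.9 in SMA-adjacent regions, where actin staining had been used to choose the areas. Blood endothelial genes (8 of 8 measured) averaged 0.952 to 3.51 times background in Pdpn-adjacent and 1.94 to 4.41 in SMA-adjacent regions. Macrophage genes (7 of 7) averaged 0.952 to 2.94 and 2.02 to 3.26 times background in Pdpn-adjacent and SMA-adjacent regions. The log2 fold change was below 0 in 7 of 9 smooth muscle and pericyte genes (median -0.74), 7 of 8 blood endothelial genes (median -0.44) and 7 of 7 macrophage genes (median -0.18). These lists thus lay mostly below 0, as did the fibroblast genes, and their part in the differences was not tested. T cell genes, which bear on Thy1, averaged 0.889 to 1.75 times background in Pdpn-adjacent and 1.27 to 1.36 in SMA-adjacent regions, and 0 of 6 genes exceeded the floor in any region.

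Adipocyte genes were abundant beside the fibroblast genes in both groups, with a mean over 5 genes of 0.952 to 43.3 times background in Pdpn-adjacent and 20.8 to 56.9 in SMA-adjacent regions. Of the 5, 4 had a log2 fold change below 0, with a median of -0.63 over all regions and -0.056 without the regions under 100000 counts. Lymphatic endothelial genes averaged 0.952 to 1.73 and 1.43 to 1.71 times background in Pdpn-adjacent and SMA-adjacent regions, and 5 of the 7, the defining factor Prox1 among them, were above the floor in 0 regions. Pdpn, whose staining was used to choose areas, was also among these 5. Its median was 0.985 times background in Pdpn-adjacent and 1.65 in SMA-adjacent regions. The log2 fold change of the lymphatic genes was below 0 in 7 of 7, with a median of -0.077. It was below 0 in 2 of 6 T cell, 0 of 7 epithelial, 0 of 5 skeletal muscle and 0 of 5 nerve and Schwann cell genes. Luminal and basal epithelial genes reached a mean of 3.18 times background in Pdpn-adjacent regions against 1.39 at most in SMA-adjacent regions. Skeletal muscle genes averaged 5.33, 118, 1.17, 44.4, 5.26 and 1.78 times background in Pdpn-adjacent regions 2, 3, 4, 7, 8 and 11, and 2.40, 12.5, 1.15, 4.42 and 9.44 in SMA-adjacent regions 1, 5, 6, 9 and 10. Nerve and Schwann cell genes averaged 1.07 to 2.45 times background in Pdpn-adjacent and 1.16 to 1.26 in SMA-adjacent regions. How far such neighbouring cells shaped the values of the fibroblast genes was not tested.

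Over the 8 deeper regions, Pearson's r between log2 times background of a gene and that of a list's mean is given as a description, with background shared by both sides. The mean was taken before the log, so the most abundant genes of a list weigh most in it. In SMA-adjacent regions Acta2 stood at 12.9 to 87.5 times background and Cnn1 at 1.31 to 3.97. Among the other fibroblast markers Col3a1 stood at 13.5 to 46.4 there and Dpp4 at 1.09 to 1.15. Of the 9 genes, 1 had its highest r with the other fibroblast markers: Gsn (0.94). Vim had its highest r with the smooth muscle and pericyte list (0.96). The highest r was with the blood endothelial list for the Ly6c1 probe (0.94), Dpt (0.91) and Pdgfra (0.83), and with the macrophage list for S100a4 (0.97), Pi16 (0.93), Cd34 (0.92) and Thy1 (0.89). Several of these ranks were near ties. Dpt also had 0.91 with the macrophage list, Cd34 0.90 with the blood endothelial list, and Pdgfra 0.82 with the lymphatic and 0.80 with the macrophage list. With the other fibroblast markers r was 0.89 for Vim, 0.86 for the Ly6c1 probe, 0.85 for Dpt and 0.80 for Cd34. It was 0.64 for Pdgfra, 0.59 for Pi16, 0.55 for S100a4 and 0.33 for Thy1. For Gsn, r with the adipocyte list was 0.83, and for Pdgfra it was 0.15.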

How the data were processed

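The authors deposited a single table of raw counts per probe and region, judged from its values: whole numbers with totals that differ widely and a lowest value of 1. How a probe with no reads was recorded, the aligner and the steps from reads to counts are not given in the sources used here. The deposited probe annotation gives coordinates on GRCm38.p6. The labels count 12 collected areas, and 11 were analysed here. Fits used the 19965 endogenous probes. The 210 negative probes (0.610% to 0.979% of a region's counts) set the background.

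Regions were compared with edgeR 4.0.16 in R 4.3.3 (filterByExpr, TMM, quasi-likelihood, two-sided, Benjamini-Hochberg over all tested probes). SE is the size of the log2 fold change over the square root of F. Exact permutation tests used log2 CPM with a prior count of 2 and weighted every region equally, which the edgeR fit does not. Their differences in mean log2 CPM therefore differ from the edgeR log2 fold changes. The fits were tested on simulated data. Alternatives used DESeq2 1.42.0, limma 3.58.1, other scalings and filters, and fewer regions. The genes and lists were chosen with earlier results of these data known. All genes of the set were named, of the other markers the 4 of smallest p, and for each gene at 2 times background or more in a group's median the 3 probes of highest r.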

Additional observations from a re-analysis of the deposited data

Results flagged for a closer look

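Of 36 sets of values checked (9 genes, 2 scales, 2 groups), 4 held a region far from the rest of its group, and chance alone is expected to single out about 1 set in 20. The 4 come from 2 counts, each seen on both scales, so the sets are not independent and that share is only a rough guide. Dpt in Pdpn-adjacent region 2 lay far below the other 5, at -0.071 in log2 times background and 5.29 in log2 CPM, on a raw count of 1. The Ly6c1 probe in Pdpn-adjacent region 3 did likewise, at -0.41 in log2 times background and 4.72 in log2 CPM, on a raw count of 2. Both regions are among the 3 under 100000 counts.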

How the results depend on the processing

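No gene of the set passed an adjusted p of 0.05 under any alternative. Across 168 alternative values from count models the lowest adjusted p was 0.141 (2 values by DESeq2 were NA), and across 126 permutation alternatives it was 0.357. The direction held in 165 of the 168 and in all 126. The exceptions were Pdgfra at 0.020 with only probes above the floor, and Thy1, which ranged from -0.41 to 0.028 as single regions were left out and was above 0 without Pdpn-adjacent region 7 or SMA-adjacent region 1; the cause was not tested. The count of calls over all probes was 2. It was 1 with only probes above the floor, with upper quartile scaling, with negative-probe scaling and without the regions under 100000 counts, 17 (1 higher, 16 lower) with DESeq2 and 0 with limma-voom, which shifted the median of all probes to 0.14. Leaving out single regions gave 1 to 53 calls: leaving out region 5 (SMA-adjacent) gave 53, leaving out region 7 (Pdpn-adjacent) gave 13, and leaving out any one of 2, 3, 9, 10 and 11 gave 1. With limma-voom Gsn was at -2.67 and Thy1 at -0.65. With the floor at 1 SD or 3 SD, Pdgfra was above it in 7 or 1 of 11 regions, Pi16 in 5 or 0 and Thy1 in 6 or 0. No paired analysis was possible because the labels do not tie regions to the 3 mice and region numbers are not shared between groups. Depth limits the 3 shallow regions most, where 1 count equals 0.952, 0.375 and 0.889 times background.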
